A study of Mus musculus with 6 samples.

Results

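The genes described here were 10 markers of disease-associated microglia (DAM), namely Trem2, Tyrobp, Apoe, Lpl, Cst7, Itgax, Spp1, Gpnmb, Axl and Clec7a. They were chosen by name, and their probes were found through the RefSeq accession that the array design gives each spot: 15 probes matched these genes, of 33767 probes matched to 23462 genes on the array. RNA came from BV2 cells, an immortalized mouse microglial line, and every sample had been treated with lipopolysaccharide (LPS), a bacterial membrane component that sets off an inflammatory response. There were 3 arrays of cells with PGC-1α overexpression and 3 of cells without it. In the cell culture methods of the study, which do not name the arrays, a lentivirus carried the PGC-1α coding sequence or a negative control, puromycin selected the transduced cells, and LPS was given at 500 ng/ml for 6 h. No sample lacked LPS, so a response to LPS itself was not measured. Nothing in the labels says that the 3 samples of a group were separate cultures, so p-values measure the spread between these samples, which may be technical.

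DAM are a state that microglia take up around amyloid plaques and in other neurodegenerative settings, in which homeostatic genes are turned down and genes of lipid handling, lysosomes and phagocytosis are turned up. TREM2 is a surface receptor for lipids and lipoproteins, and it signals through the adaptor TYROBP, whose cytoplasmic motif recruits the kinase SYK. Tyrobp and Apoe are known from the early, TREM2-independent step into the state, Lpl, Cst7, Itgax, Spp1, Axl and Clec7a from the later step that depends on TREM2, and Gpnmb marks lipid-laden cells of the state. PGC-1α is a transcriptional coactivator that works with estrogen-related receptors (ERR) and PPARs.

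For 8 of the genes a promoter window, 250 bases before to 50 after the transcript start, was given in the RefSeq tables for GRCm38.p6, 12 windows in all. The start regions shown were picked from Trem2, the receptor of the state, Cst7 and Gpnmb. Cst7 had the lowest log2 fold change when each marker was read on its brightest probe, though the dimmer Axl probe fell further. Gpnmb is a marker whose direction turned with the scaling, as did that of Apoe, Lpl, Itgax and Spp1. Capitals mark TGANTCA, a loose form of the AP-1 site with any base in the middle. In Trem2 alone of the 12 windows they also mark the extended ERR site TNAAGGTCA, read here on the opposite strand. Trem2 is at chr17:48346151-48346450, Cst7 at chr2:150570165-150570464 and Gpnmb at chr6:49036268-49036567, all on the plus strand.
Trem2: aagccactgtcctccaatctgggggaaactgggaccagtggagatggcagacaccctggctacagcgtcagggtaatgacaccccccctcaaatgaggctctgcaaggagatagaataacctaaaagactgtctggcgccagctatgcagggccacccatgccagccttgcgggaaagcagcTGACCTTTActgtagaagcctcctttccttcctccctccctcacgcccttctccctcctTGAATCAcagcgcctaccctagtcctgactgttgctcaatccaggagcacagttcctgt
Cst7: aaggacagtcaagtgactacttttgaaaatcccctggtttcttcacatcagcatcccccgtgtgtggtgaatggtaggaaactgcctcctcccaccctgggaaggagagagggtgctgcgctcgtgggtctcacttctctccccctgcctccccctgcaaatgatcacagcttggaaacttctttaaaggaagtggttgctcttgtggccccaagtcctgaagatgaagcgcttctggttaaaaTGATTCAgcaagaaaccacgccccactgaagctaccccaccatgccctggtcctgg
Gpnmb: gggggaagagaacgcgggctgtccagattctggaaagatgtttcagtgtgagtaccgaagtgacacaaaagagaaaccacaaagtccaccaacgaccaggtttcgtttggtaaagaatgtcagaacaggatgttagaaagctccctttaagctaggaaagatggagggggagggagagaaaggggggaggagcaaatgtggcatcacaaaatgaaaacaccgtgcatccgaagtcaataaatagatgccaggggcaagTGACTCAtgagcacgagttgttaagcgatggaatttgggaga
The loose AP-1 letters were found in 4 of the 12 windows, as TGAATCA in Trem2, TGATTCA in Cst7, TGACTCA in Gpnmb and TGAGTCA in Itgax. The windows of Clec7a overlap each other, as do some of Apoe, so the 12 are not all separate regions. The same loose letters were found in 7.79% of 32544 distinct promoter windows of the mouse. The ERR letters were found in 1.28% of them. The PU.1 motif GAGGAAGT was found in 1 window, of Spp1, and in 3.11% of all windows. The E-boxes CACGTG and CATGTG, the lysosomal motif TCACGTGA, which contains the former, the STAT motif TTCCNGGAA and the NF-kB-like motif GGGNNTTCC were found in 0 of the 12, against 7.17%, 14.2%, 0.983%, 1.16% and 5.85% of all windows, both strands counted. These are matches of letters, and binding was not measured on these arrays.

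Arrays with PGC-1α were dimmer as a whole. In replicates 1, 2 and 3, the array's 75th percentile came to an intensity of 1617, 1627 and 1893 without PGC-1α and to 1157, 856 and 1268 with it, so levels are given as log2 intensity with the 75th percentile of each array set to 0. Replicates 1 and 2 of both groups lay on slide 1 and replicate 3 of both on slide 2. The transcript of PGC-1α itself, Ppargc1a, had 2 probes near background, with intensities of 21.8, 19.6 and 9.06 without and 22.3, 22.1 and 21.2 with PGC-1α for the first, and 14.1, 20.3 and 13.8 against 9.07, 12.4 and 15.1 for the second. Neither was well above background on every array of a group, so neither was tested, and whether they lie in the transferred coding sequence was not tested. Of 12 macrophage and microglia markers, 10 were well above background on all arrays, and Cx3cr1 and P2ry12 on none. For this list the summed level, in multiples of the array's 75th percentile, was 79.1 to 82.1 without and 107 to 122 with PGC-1α. Of its 10 tested genes 3 were called higher and 1 lower. Their median log2 fold change was -0.12 relative to that of all genes, and a sum of levels mainly follows the brightest genes. The fibroblast list summed to 15.4 to 16.6 without and 26.6 to 32 with PGC-1α. The neuron list, with 4 of 6 genes tested, summed to 24.3 to 29.8 without and 36.5 to 49.8 with PGC-1α. The astrocyte list, with 4 of 5 tested, summed to 0.26 to 0.298 and 0.426 to 0.56. The T cell list, with 4 of 5 tested, summed to 0.573 to 0.714 and 0.893 to 1.22. Slc17a7 and Syt1 of the neuron list were not above background on any array. Oligodendrocyte and endothelial markers summed to 1.05 to 1.16 and 0.0529 to 0.0691 without and to 1.18 to 1.32 and 0.0709 to 0.0932 with PGC-1α, with Cdh5, Kdr and Tek of the latter not above background on any array. Of the fibroblast list 4 markers were well above background on all arrays and Col3a1 was not. The list for dendritic cells, a cell type that also expresses Itgax and Clec7a, summed to 1.06 to 1.32 without and 0.704 to 0.761 with PGC-1α. Of its 6 genes 4 were tested, and Clec9a was not above background on any array. All samples were of the BV2 line, so these lists give transcript levels in that line and not shares of other cell types. The part of these levels in the results below was not tested. Bulk RNA cannot tell fewer expressing cells from less RNA per cell.

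All 10 DAM markers were well above background on all 6 arrays. With PGC-1α overexpression, 4 passed the test on the 75th percentile scaling: Tyrobp, Apoe and Trem2 were higher and Cst7 was lower, while Lpl, Itgax, Spp1, Gpnmb and Clec7a and the brighter probe of Axl did not pass. The 3 higher calls among 10 compare with 36.7% of the 17172 genes tested that were called higher, the 1 lower call with 19.5%, and the 4 calls together with 56.1%. The share of DAM markers called was thus no larger than that of all genes. Of the 9 markers with 6 values, 6 had groups that did not overlap, against 65.6% of all such genes. The median log2 fold change of the 10 was 0.28 and that of all genes 0.23. The changes of Tyrobp, Trem2, Apoe, Cst7 and Gpnmb below are therefore also given relative to the latter. Relative to it, Clec7a stood at 0.26, Spp1 at 0.08, Lpl at 0.04, Itgax at -0.17 and the brighter Axl probe at -0.38. On the scalings that follow brightness, quantile normalization and cyclic loess, 0 DAM markers were higher and 2, Cst7 and Gpnmb, were lower. In all, 45.1% of genes were called under quantile normalization, 22.2% lower, and 42.9% under cyclic loess, 24.3% lower.

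**Figure D1:**
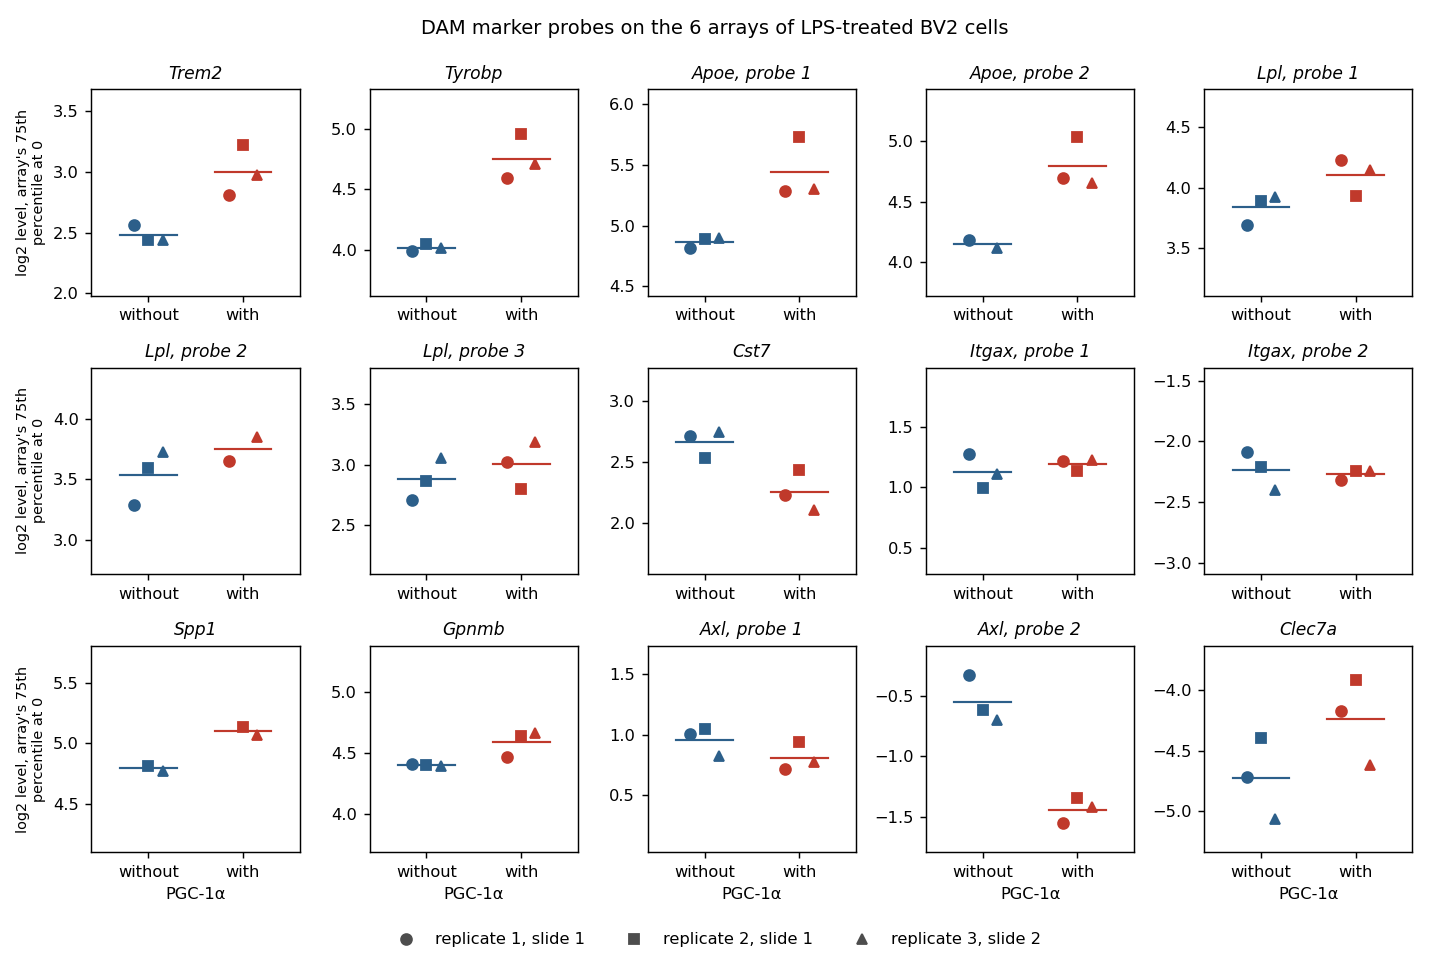
The level of each of the 15 DAM marker probes on each array (log2 intensity, 75th percentile of the array at 0), without PGC-1α in blue and with PGC-1α in red. Points are arrays, with the replicate and slide given by the symbol, horizontal lines are group means, and every panel spans the same range of the log2 scale. Tyrobp, Apoe and Trem2 lie higher with PGC-1α on this scaling (under quantile normalization Apoe turns to -0.05, and Tyrobp and Trem2 at 0.12 and 0.15 do not pass), while Cst7 and the second Axl probe lie lower.

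The receptor and its adaptor were both higher with PGC-1α on this scaling, by different amounts. Tyrobp (NM_011662) stood at 3.99, 4.05 and 4.02 on the 3 arrays without PGC-1α and at 4.59, 4.96 and 4.71 with it. Every array with PGC-1α was above every array without it. The means were 4.02 ± 0.03 and 4.75 ± 0.19 (SD, n = 3 each), a log2 fold change of 0.74 with an SE of 0.13 and an adjusted p of 0.00311 (limma), or 0.51 above the median of all genes. Its scanner intensity before scaling was 25700, 26910 and 30630 without and 27920, 26600 and 33190 with PGC-1α, so that the unscaled groups overlapped. Tyrobp was called higher on the 75th percentile and median scalings, and its log2 fold change was 0.12 under quantile normalization with an adjusted p of 0.35 and 0.20 under cyclic loess with an adjusted p of 0.16.

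Trem2 (NM_001272078) stood at 2.56, 2.44 and 2.44 without PGC-1α and at 2.81, 3.22 and 2.97 with it. The groups did not overlap, and replicate 2 with PGC-1α, the dimmest array, was the highest. The log2 fold change was 0.52 with an SE of 0.14 and an adjusted p of 0.015 (limma), which is 0.29 above the median of all genes. The call was lost without replicate 2 of the control cells, with an adjusted p of 0.051, and the value was 0.15 under quantile normalization and 0.17 under cyclic loess, neither past the threshold. Unscaled intensities were 9549, 8839 and 10280 without and 8122, 7980 and 9955 with PGC-1α, and there the sign turned to -0.14. Within the array, the level of Trem2 minus that of Tyrobp was -1.54 ± 0.10 without PGC-1α and -1.75 ± 0.03 with it (SD, n = 3 each), a difference that no scaling factor of the array can change. The groups did not overlap in this difference, but 3 arrays against 3 cannot give an exact permutation p below 0.1.

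Of the lipid genes, Apoe passed the test and Lpl did not, and the difference between them within the array moved by 0.31 with overlapping groups. Apoe, the lipoprotein that TREM2 binds, was among the brightest genes, at 4.82, 4.89 and 4.90 without and 5.29, 5.73 and 5.31 with PGC-1α on its brighter probe (NM_009696). All arrays with PGC-1α were higher, by a log2 fold change of 0.57 with an SE of 0.15 and an adjusted p of 0.013 (limma), or 0.35 above the median of all genes. The other probe, read on 2 control arrays because the spot of control replicate 2 was marked as an outlier, gave 0.65 with an adjusted p of 0.016 over probes. The sign of the brighter probe turned to -0.05 under quantile normalization and -0.06 under cyclic loess, both far from the threshold, whereas the other probe stayed at 0.04 and 0.11 there, not past it. Lpl, which hydrolyses the triglycerides of lipoproteins, stood at 3.70, 3.89 and 3.93 without and 4.23, 3.93 and 4.15 with PGC-1α on its brightest probe (NM_008509). These groups were just apart, but the log2 fold change of 0.26 had an adjusted p of 0.13, and the other probes gave 0.22 and 0.13 with overlapping groups. Lpl turned to -0.29 under quantile normalization and -0.22 under cyclic loess, and it was past the threshold under 0 of the 20 alternatives that gave a test.

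Cst7, which encodes the lysosomal protease inhibitor cystatin F, went the other way. Its level (NM_009977) was 2.71, 2.54 and 2.75 without PGC-1α and 2.23, 2.44 and 2.10 with it. Each array with PGC-1α lay below each array without it, and the raw intensities were 10590, 9439 and 12730 against 5410, 4637 and 5452. The means were 2.67 ± 0.11 and 2.26 ± 0.17 (SD, n = 3 each), a log2 fold change of -0.41 with an SE of 0.14 and an adjusted p of 0.034 (limma). Relative to the median of all genes this is -0.64. Under the other scalings Cst7 lay further down, at -0.74 with an adjusted p of 0.0022 under quantile normalization and at -0.73 with an adjusted p of 0.0026 under cyclic loess. It was -0.29 within slide 1 and -0.65 within slide 2. The call on the 75th percentile scaling was lost without control replicate 1 or 3 or replicate 1 or 3 with PGC-1α, with adjusted p of 0.091 to 0.10, though the value stayed between -0.33 and -0.39 there.

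AXL is a TAM receptor tyrosine kinase that binds apoptotic cells through GAS6, and its 2 probes, both matched through NM_009465, gave different sizes. The brighter probe stood at 1.01, 1.04 and 0.83 without and 0.72, 0.94 and 0.77 with PGC-1α, with overlapping groups and a log2 fold change of -0.15 (adjusted p 0.34). The dimmer probe stood at -0.33, -0.62 and -0.70 without and at -1.55, -1.35 and -1.42 with PGC-1α, well apart. Its log2 fold change was -0.89 with an SE of 0.14 and an adjusted p of 0.0021 over probes (limma), where 52.2% of all tested probes passed, and it passed the threshold under every alternative run on it, at -0.78 to -1.55. Its intensity was 1288, 1061 and 1163 without and 394.3, 336.9 and 474.7 with PGC-1α. Which part of the transcript each probe covers was not analysed here. With both probes averaged, Axl passed at -0.52 with an adjusted p of 0.012.

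Itgax, the integrin αX chain known as CD11c, had overlapping groups. Its brighter probe (NM_021334) stood at 1.27, 1.00 and 1.11 without and 1.22, 1.13 and 1.22 with PGC-1α, and the log2 fold change was 0.06 ± 0.13 (SE, adjusted p 0.69). The dimmer probe gave -0.04. Clec7a, the β-glucan receptor dectin-1, was dim on the 1 probe matched to it (NM_001309637), with intensities of 51.5 to 77.2. Probes whose accession the RefSeq table does not hold were left out, and another probe of Clec7a may be among them. It stood at -4.72, -4.40 and -5.06 without and -4.18, -3.91 and -4.62 with PGC-1α, a log2 fold change of 0.49 with an SE of 0.23 and an adjusted p of 0.095 (limma). Replicate 3, the array on slide 2, was lowest in both groups. The difference was 0.51 within slide 1 and 0.44 within slide 2, and with the slide as a block Clec7a passed, with an adjusted p of 0.013. It also passed without replicate 3 with PGC-1α, at 0.68 with an adjusted p of 0.030, and it did not pass under quantile normalization.

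Spp1 and Gpnmb encode osteopontin, a secreted ligand of integrins and CD44, and a transmembrane glycoprotein of lysosomes and phagosomes. The Spp1 spot (NM_009263) was marked as an outlier on replicate 1 of both groups, so the fit used 2 arrays against 2, at 4.82 and 4.77 without and 5.13 and 5.07 with PGC-1α. The log2 fold change of 0.31 did not pass (adjusted p 0.14), and its sign turned to -0.36 under quantile normalization. Gpnmb (NM_053110) stood at 4.41, 4.40 and 4.39 without and 4.46, 4.64 and 4.67 with PGC-1α. All 3 arrays with PGC-1α were higher, yet the log2 fold change of 0.19 did not pass (adjusted p 0.20) and was -0.04 relative to the median of all genes. The sign turned under the scalings that follow brightness, and there Gpnmb was called lower, at -0.42 with an adjusted p of 0.019 under quantile normalization and at -0.36 with an adjusted p of 0.032 under cyclic loess. Its intensities were 34300, 34430 and 39810 without and 25540, 21380 and 32240 with PGC-1α.

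**Figure D2:**
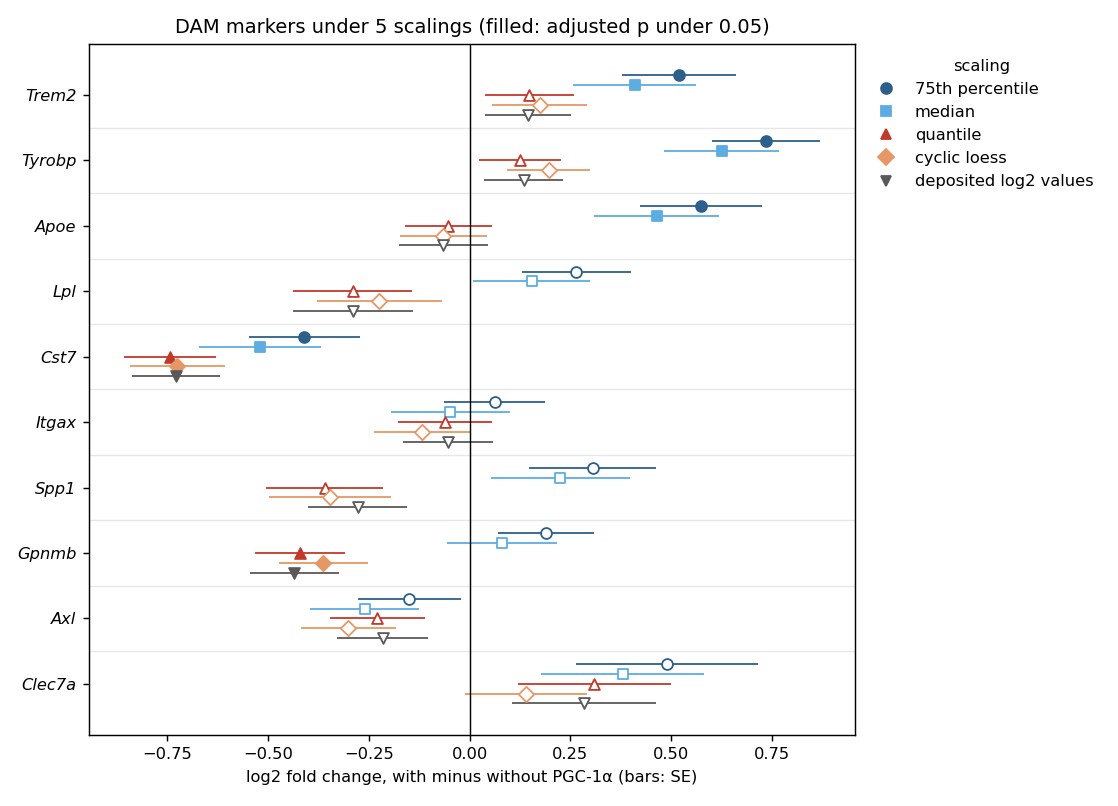
Log2 fold change of each DAM marker (with minus without PGC-1α, bars give the SE of the limma fit) under 5 scalings, filled where the adjusted p was under 0.05. Tyrobp, Apoe and Trem2 are filled on the right under the 75th percentile and the median only, Apoe turns to the left under the others, and Cst7 is filled on the left under all 5, from -0.41 to -0.74.

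Most DAM marker probes were bright, and the change of all genes varied with brightness on these arrays. When the tested genes were ordered by their mean level and split into 10 bins of equal number, Trem2, Tyrobp, Apoe, Lpl, Spp1 and Gpnmb lay in the brightest bin, Cst7 in the next, Itgax and Axl in the bin after that and Clec7a in the second dimmest. In the brightest bin, the median log2 fold change was 0.52, 70.4% of the genes were called higher and 0.175% lower. Relative to that median, Tyrobp stood at 0.22, Apoe at 0.06, Trem2 at 0.00, Spp1 at -0.21, Lpl at -0.25 and Gpnmb at -0.33. These 6 markers thus lay on both sides of the median of their bin. That bin spans mean levels of 2.73 to 6.71, and Trem2, at 2.74, lies at its lower edge. The next bin down had a median of 0.23, so the value of Trem2 depends on where the bins are cut. Cst7 stood at -0.64 relative to the median of its own bin, in which 5.07% of genes were called lower. The median of all genes was 0.23 on the 75th percentile scaling, 0.12 with the median in its place, 0.02 under quantile normalization, -0.02 under cyclic loess and 0.03 in the log2 values that the authors deposited. On those deposited values 42.4% of genes were called, 21% lower, and the DAM markers past the threshold were again Cst7 and Gpnmb, both lower.

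**Figure D3:**
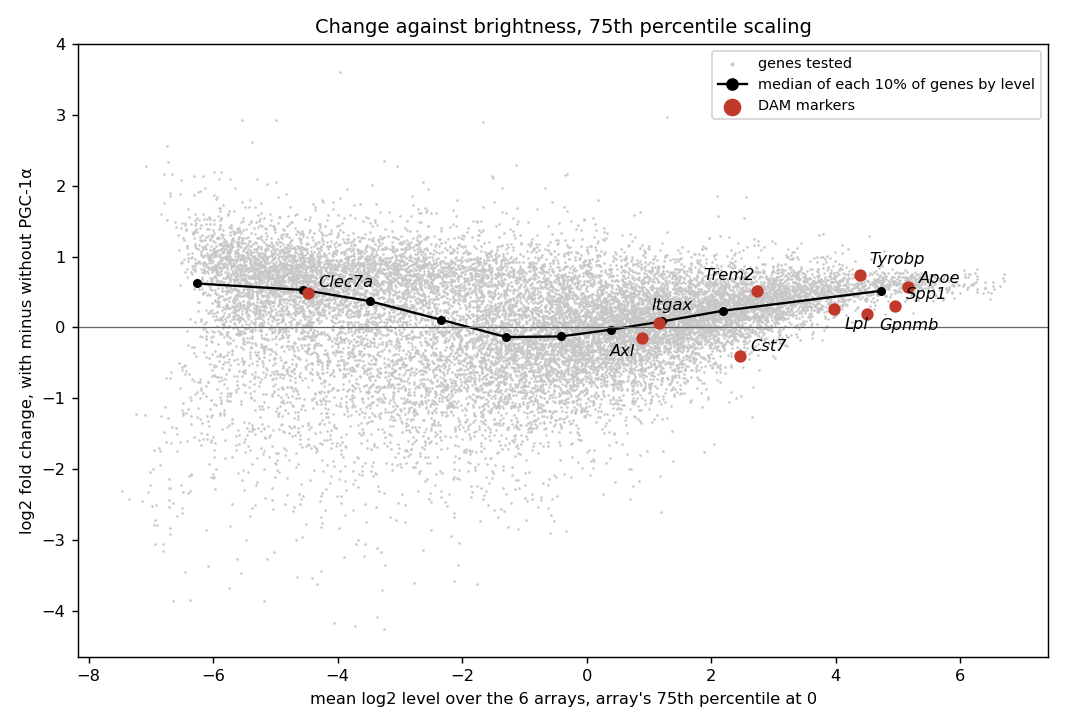
Log2 fold change (with minus without PGC-1α) against mean log2 level on the 75th percentile scaling, for the 17172 genes tested (grey) and the 10 DAM markers (red). The black line joins the median of each of 10 equal bins of genes, drawn at the middle of its range of levels. It falls from 0.62 in the dimmest bin to -0.14 and rises to 0.52 in the brightest. Apoe lies close to its bright end, Trem2 above it and Cst7 well below it.

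Differences between genes on the same array do not depend on any single scaling factor. Tyrobp exceeded Cst7 by 1.28, 1.51 and 1.27 without PGC-1α and by 2.37, 2.52 and 2.61 with it, so that the gap widened by 1.15. The gap between Apoe and Cst7 widened by 0.98, between Trem2 and Cst7 by 0.93, and between Tyrobp and the brighter Axl probe by 0.88. Each of these gaps was wider on every array with PGC-1α than on every array without it. Apoe and Trem2 kept their distance, with a gap that moved by 0.05 and overlapping groups. Of the 36 pairs among the 9 markers with 6 values, 21 had groups that did not overlap, beside 56.9% of the differences between these markers and every other gene with 6 values. Against 16234 other genes, Cst7 was lower with PGC-1α, with no overlap between the groups, relative to 62.4% and higher relative to 9.7%. For Tyrobp these shares were 4.26% and 59.8%, for Apoe 9.09% and 48.1%, for Trem2 9.97% and 44.7%, and for Axl 51% and 17.4%. Gpnmb was lower relative to 26.5% and higher relative to 29.7%, close to balanced.

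**Figure D4:**
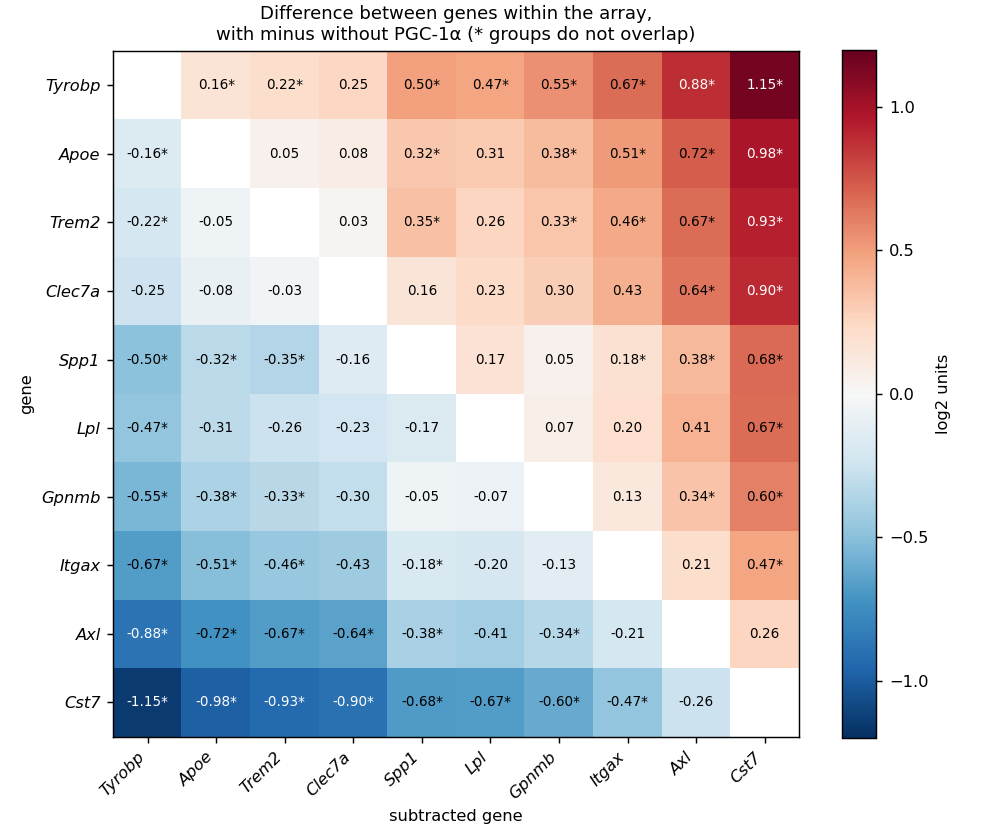
Change with PGC-1α of the difference in log2 level between each DAM marker (row) and another (column) on the same array, in log2 units, with a star where the 2 groups do not overlap. Pairs with Spp1 rest on 2 arrays a group and the others on 3. The row of Tyrobp is positive throughout, up to 1.15 against Cst7, and the row of Cst7 is negative throughout.

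The counts of partner genes below are read against all tested genes, of which 36.7% were called higher, 19.5% lower and 56.1% in all on the 75th percentile scaling. Of 17 signalling genes of TREM2, TYROBP and dectin-1, all tested, 5 were higher, 4 lower and 8 not past the threshold, with a median of -0.00, so 9 of 17 were called beside 56.1% of all genes. Hcst, the adaptor DAP10, was higher by 0.81, the adaptor Lat by 0.69, Malt1, a paracaspase downstream of CARD9, by 0.61, and the kinase Syk by 0.39. The guanine nucleotide exchange factor Vav1 fell by 0.93, the transcription factor Nfatc1 fell by 0.81, the adaptor Lat2 fell by 0.58 and the phosphatase Inpp5d, or SHIP1, fell by 0.46, and each of these 8 kept its sign under cyclic loess, where Syk (adjusted p 0.085) was not past the threshold. With the probes of each gene averaged, 5 of the 17 were past the threshold, beside 9278 of all 17172 genes. Of 9 tested TREM family and other TYROBP-coupled receptors, 4 were higher and 2 lower, beside 36.7% and 19.5% of all genes, and under cyclic loess 2 were higher and 2 lower. Trem3 was higher by 0.88 and Treml2 fell by 1.14, and both passed under cyclic loess too, at 0.65 and -1.17. Trem1, which amplifies inflammatory signals, was higher by 0.63 on the 75th percentile scaling and by 0.02, not past the threshold, under cyclic loess.

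For the lipid genes, 3 of 15 tested partners of APOE and LPL were higher and 2 lower, so 5 of 15 were called beside 56.1% of all genes. The cholesterol efflux transporter Abca1 fell by 1.40 (adjusted p 0.0019, limma) and fell by 1.66 under cyclic loess. The endocytic receptors Lrp1 and Vldlr were higher by 0.69 and 0.65 and passed under cyclic loess as well, at 0.36 and 0.56. Lrp8, another APOE receptor, fell by 0.41. With the slide as a block 10 of the 15 were past the threshold, and 3 were without control replicate 3 or without replicate 1 with PGC-1α. In that order, 10941 of 17172, 7647 of 17481 and 7403 of 17004 of all genes were past it. Among the 8 cysteine proteases that cystatins inhibit, 6 were higher and 0 lower on the 75th percentile scaling, with a median of 0.41, beside 36.7% of all genes and 70.4% of the brightest bin of genes called higher. Only Ctsk, at 0.89 and at 0.64 under cyclic loess, was past the threshold on that scaling too, and 2 of the 8 were without control replicate 1, control replicate 2 or replicate 1 with PGC-1α. Without these arrays, in that order, 7745 of 17037, 7886 of 16988 and 7403 of 17004 of all genes were past it. Ctsb was higher by 0.46 on the 75th percentile scaling and turned to -0.05, not past the threshold, under cyclic loess.

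Of the TAM receptors and ligands, Mertk, the receptor of efferocytosis next to Axl, fell by 1.06 (adjusted p 0.0025, limma) and the ligand Gas6 was higher by 0.56 (adjusted p 0.0097). Tyro3 gave -0.14 and did not pass, and the ligand Pros1 was higher by 0.83 and lost its call under cyclic loess. Of 11 integrin and osteopontin partners, 5 were higher and 3 lower, beside 36.7% and 19.5% of all genes, and under cyclic loess 1 was higher and 3 lower. Itgb3 was higher by 0.93, whereas Itgav, which pairs with it in an osteopontin receptor, fell by 0.93, Itga9 fell by 0.73 and Itgb5 fell by 0.53, all 4 past the threshold under cyclic loess too. Itga9 was dim, at -5.85 without and -6.58 with PGC-1α, levels like those of the Ppargc1a probes near background. The size of its fall is thus limited by its signal over background. The bright genes Itgam, Itgb1 and Cd44 were higher by 0.75, 0.65 and 0.63 but by 0.10, 0.28 and 0.22, not past the threshold, under cyclic loess.

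Among 35 other genes of the DAM state, 32 were tested, with 14 higher and 3 lower on the 75th percentile scaling and 2 higher and 7 lower under cyclic loess. The 17 of 32 called stand beside 56.1% of all genes, and the 7 of 32 lower under cyclic loess beside 24.3%. Igf1 was higher by 1.00 and by 0.73 under cyclic loess, and Serpine2 by 0.59 and 0.55. Csf1, the growth factor of microglia, fell by 1.74 (adjusted p 9.67e-05, limma) and fell by 1.90 under cyclic loess. The chemokine gene Ccl4 fell by 0.85 and fell by 0.90 on these scalings. The lysosomal Ctsz and the ferritin chain Fth1 were higher by 0.76 and 0.70 on the 75th percentile scaling and gave 0.07 and -0.01 under cyclic loess. Without control replicate 3, 11 of the 32 were past the threshold, beside 7647 of all 17481 genes tested there. Of 11 tested homeostatic markers, which the DAM state turns down, 5 were higher and 1 lower, beside 36.7% and 19.5% of all genes, while under cyclic loess 1 was higher and 2 lower and under quantile normalization 2 and 2. The lower gene on the 75th percentile scaling was Tmem119, which fell by 2.68 (adjusted p 4.42e-05) and fell by 2.71 under cyclic loess. Of the 5 higher genes, Sparc rose by 0.96 and stayed past the threshold under cyclic loess, at 0.92 (adjusted p 0.0078, limma). Siglech, Csf1r and Cst3 were higher by 0.70, 0.67 and 0.41. They gave 0.18, 0.31 and -0.13, not past the threshold, under cyclic loess. Without control replicate 1 or 2, 3 of the homeostatic markers were past the threshold, beside 7745 of 17037 and 7886 of 16988 of all genes.

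Of 16 tested transcription factors tied to DAM genes, 4 were higher and 7 lower, with a median of -0.35, beside 36.7% and 19.5% of all genes. Many of them lay in the bins of mean level from -1.76 to 0.78, in which 24.46% to 34.07% of genes were called lower. Under cyclic loess 3 were higher and 9 lower, beside 3186 and 4174 of all 17172 genes. Nr1h3, the liver X receptor α that acts on Apoe and Abca1, was higher by 1.63 (adjusted p 7.63e-05, limma) and by 1.59 under cyclic loess, Bhlhe41 by 0.96 and 0.93, and Pparg by 0.81 and 0.64. Mitf, a factor known to act on Gpnmb, fell by 1.06 (adjusted p 0.00081) and fell by 1.17 under cyclic loess. Its relative Tfec fell by 0.64, Cebpa fell by 1.64 and the receptor partner Rxra fell by 0.56. Spi1, the gene of PU.1, gave 0.17 and Tfe3 0.21, neither past the threshold. Esrra, the gene of ERRα, was higher by 0.46 on the 75th percentile scaling and gave 0.18, not past the threshold, under cyclic loess. Without replicate 1 with PGC-1α, 6 of the 16 were past the threshold, beside 7403 of all 17004 genes tested there.

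**Figure D5:**
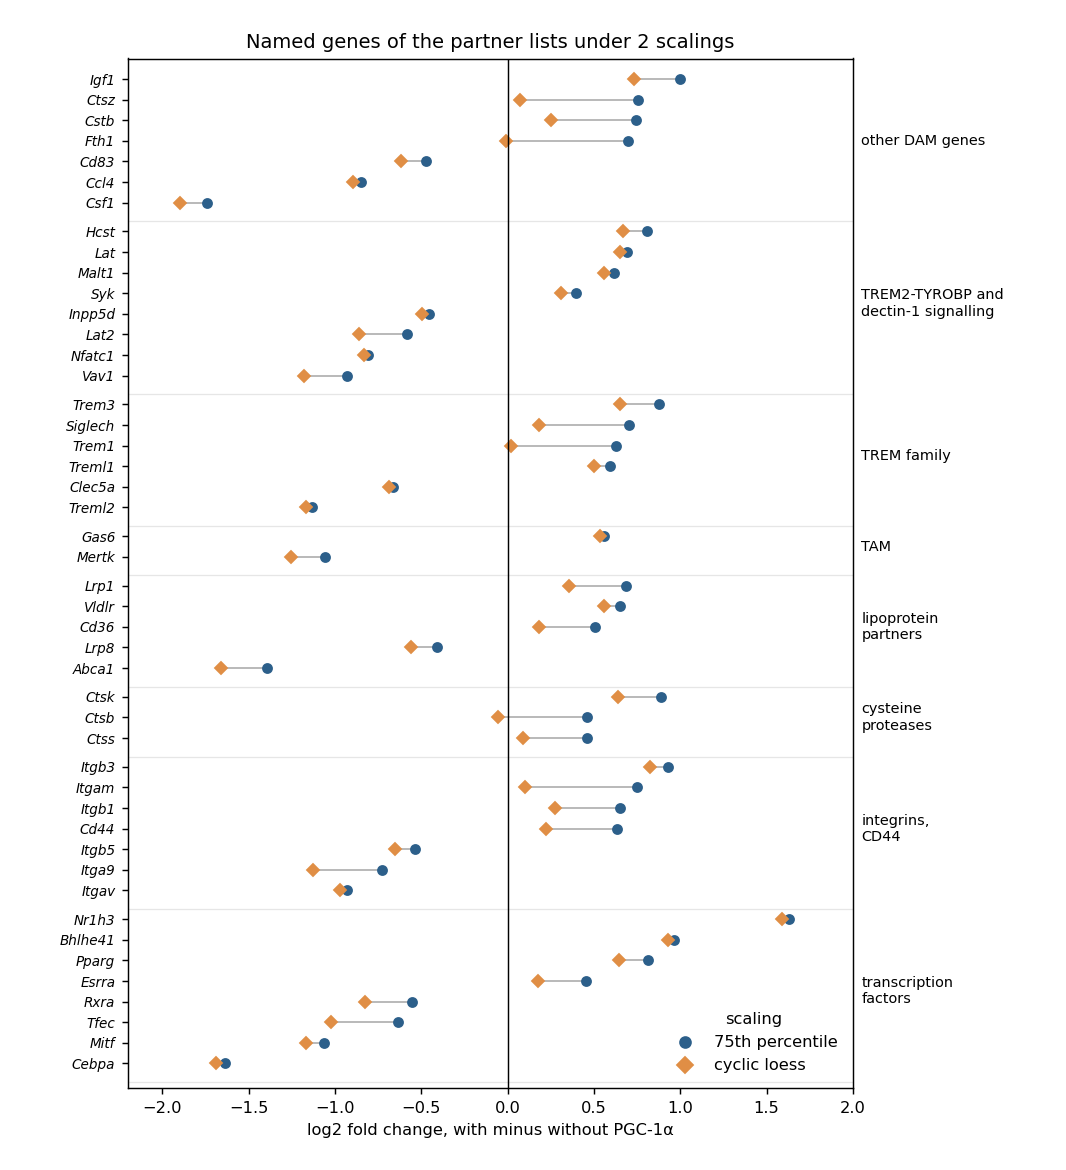
Log2 fold change (with minus without PGC-1α) of the named genes of the partner lists on the 75th percentile scaling (blue circles) and under cyclic loess (orange diamonds), grouped by list, homeostatic markers left out. Nr1h3, Cebpa, Csf1, Abca1 and Mertk stay far from 0 on both, while Ctsz, Trem1 and Itgam move to between 0.02 and 0.10, and Fth1 and Ctsb cross to -0.01 and -0.05.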

How the data were processed

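RNA of BV2 cells after LPS was measured on 6 Agilent mouse arrays, 1 sample each, 3 without and 3 with PGC-1α overexpression. Groups, replicate numbers and slides came from the labels. The authors' scanner software, Agilent Feature Extraction 11.5.1.1, gave a background-subtracted green intensity per spot, which the authors deposited with no scaling between arrays. A table of log2 values deposited by the authors had been normalized in GeneSpring by an unnamed procedure and was used as an alternative. The labels name Cy3 and the methods Cy5.

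Here log2 intensity minus the 75th percentile of each array over 59305 spots was used, outlier spots were left out, and spots of a probe were averaged. Accessions were matched to RefSeq genes. A probe was tested with 2 or more values per group and when well above background on all 3 arrays of a group; the brightest probe stood for its gene, which left 17172 genes (24824 probes). R 4.3.3 with limma 3.58.1 (lmFit, then eBayes, two-sided) gave the tests, with Benjamini-Hochberg adjustment over all genes (or all probes) and a threshold of 0.05. The steps were tested on simulated data. Named genes were all 10 DAM markers with every probe, Ppargc1a, and from each other list up to 4 called genes per direction with groups apart; Serpine2, Pros1, Tyro3, Spi1 and Tfe3 were added after their values were seen. The markers and lists were chosen with earlier results of these data known. Alternatives were quantile normalization, the median, normexp with an offset of 50, other filters, probe means, the slide or replicate number as a block, a robust variance trend, the authors' log2 values and each array left out. Cyclic loess, no scaling and counting outlier spots as not well above background were chosen after seeing the data. The number of arrays limits the precision.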

Additional observations from a re-analysis of the deposited data

How the results depend on the processing

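On the scalings that follow brightness the calls of Trem2, Tyrobp and Apoe were lost. Trem2 gave 0.15 under quantile normalization, 0.13 with normexp before it, 0.17 under cyclic loess and 0.14 in the authors' log2 values, and -0.14 with no scaling. Tyrobp gave 0.12, 0.10, 0.20, 0.13 and 0.073 under the same settings. In that order the brighter Apoe probe turned to -0.053, -0.059, -0.065, -0.065 and -0.088, Lpl to -0.29, -0.32, -0.22, -0.29 and -0.40, Itgax to -0.061, -0.032, -0.12, -0.053 and -0.60, Spp1 to -0.36, -0.32, -0.35, -0.28 and -0.45, and Gpnmb to -0.42, -0.30, -0.36, -0.43 and -0.47. The second Apoe probe gave 0.043, 0.065, 0.11 and 0.090 under the first 4, not past the threshold. Without scaling, Clec7a turned to -0.17, the second Apoe probe to -0.049 and the brighter Axl probe passed at -0.81. Itgax also turned to -0.048 with the median. The second Lpl probe turned to -0.24, -0.27, -0.17, -0.30 and -0.28 and the third to -0.27, -0.28, -0.24, -0.27 and -0.54, in the order above. The second Itgax probe reversed to 0.037 without control replicate 1.

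The count of DAM markers past the threshold, 4, became 2 under quantile normalization with and without normexp, under cyclic loess and in the authors' values, with 0 higher and 2 lower. For quantile normalization with normexp, 6894 of all 17172 genes were past it. With no scaling 0 were higher and 3 lower, with probe means 2 were lower, and with no filter on dim probes 0 were lower, since Cst7 (-0.41, adjusted p 0.067) lost its call. In that order, 7496 of 17172, 9278 of 17172 and 8650 of 23333 of all genes were past the threshold. Axl passed at -0.52 with probe means. Clec7a passed at 0.51 with normexp and the 75th percentile, and at 0.49 with the slide as a block. Cst7 was -0.65 and Gpnmb 0.27 within slide 2. The deviations of same-numbered arrays correlated at -0.16, 0.07 and 0.60, so the numbers were not taken to pair the samples. The replicate block gave 5 DAM markers past the threshold, 4 higher and 1 lower, beside 10556 of all 17172 genes. There Clec7a passed at 0.49 with an adjusted p of 0.0092. Leaving out each array in turn gave Trem2 from 0.41 to 0.61, Cst7 from -0.50 to -0.33, Itgax from -0.0024 to 0.14 and Clec7a from 0.32 to 0.68. These runs had 3 to 4 markers past the threshold, 2 to 4 higher and 0 to 1 lower. Beside these, 7403 to 9905 of all genes were past it, of 16988 to 17636 tested. Over the DAM markers and the counts of markers and of all genes past the threshold, 223 values under alternatives kept their sign and, where tested, their side of the threshold, or stayed close to the count, while 29 reversed, 29 were weaker, 12 stronger and 2 moved. The dim probe of Clec7a is limited by its signal over background.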
